A study of Mus musculus with 6 samples.

Results

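Zinc handling in MC38 mouse colorectal cancer cells was described through 10 genes: the metallothionein genes Mt1 and Mt2, the zinc-sensing transcription factor gene Mtf1, the exporter genes Slc30a1, Slc30a5 and Slc30a7, and the importer genes Slc39a1, Slc39a6, Slc39a7 and Slc39a10. They were looked up by name among the 30828 target IDs of the deposited array table, and all 10 were found, with 1 target each (MT1, MT2, MTF1, SLC30A1, SLC30A5, SLC30A7, SLC39A1, SLC39A6, SLC39A7 and SLC39A10 in the array's spelling). The 10 genes were chosen with earlier results of these data known. MC38 cells in RPMI medium with foetal calf serum were exposed for 24 h to 50 µM of the omega-3 fatty acid EPA (eicosapentaenoic acid) in its free form. They were compared with control cells for which the labels give neither a vehicle nor a time. Each group had 3 samples of total RNA, each hybridised to 1 Illumina bead array for the whole mouse genome. Nothing in the labels ties the samples of a group to separate cultures, so the p-values cover only sample-to-sample spread, which could be technical.

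Zinc is bound in the cytosol by metallothioneins, small cysteine-rich proteins that also bind copper and cadmium. Proteins of the SLC30 family (ZnT) move zinc out of the cytosol, either across the plasma membrane or into organelles, and those of the SLC39 family (ZIP) move it into the cytosol. MTF1 senses free zinc and activates metallothionein genes and Slc30a1 by binding metal response elements in their promoters.

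The sequence around the annotated start is shown for the 4 members whose promoter window held the core of that element, because Mt1, Mt2 and Slc30a1 are the textbook targets of MTF1 and Slc30a5 was among the genes that rose. RefSeq windows of 300 bases (assembly GRCm38.p6, from 250 bases before to 50 bases after the annotated start) were found for 9 of the 10 members. Slc39a6 had no window and was not searched. The core was searched on both strands as TGCACNC or TGCGCNC, and capitals mark each match, so a match on the opposite strand appears as its reverse complement. The windows are chr8:94178839-94179138 on the plus strand for Mt1, chr8:94172368-94172667 on the plus strand for Mt2, chr1:191906531-191906830 on the plus strand for Slc30a1 and chr13:100833378-100833677 on the minus strand for Slc30a5.
Mt1: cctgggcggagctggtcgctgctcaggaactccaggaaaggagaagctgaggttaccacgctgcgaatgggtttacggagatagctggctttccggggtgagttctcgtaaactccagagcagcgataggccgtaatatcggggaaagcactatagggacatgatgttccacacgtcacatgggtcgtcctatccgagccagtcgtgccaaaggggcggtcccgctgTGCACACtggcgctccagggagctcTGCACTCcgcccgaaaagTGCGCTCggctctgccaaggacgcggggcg
Mt2: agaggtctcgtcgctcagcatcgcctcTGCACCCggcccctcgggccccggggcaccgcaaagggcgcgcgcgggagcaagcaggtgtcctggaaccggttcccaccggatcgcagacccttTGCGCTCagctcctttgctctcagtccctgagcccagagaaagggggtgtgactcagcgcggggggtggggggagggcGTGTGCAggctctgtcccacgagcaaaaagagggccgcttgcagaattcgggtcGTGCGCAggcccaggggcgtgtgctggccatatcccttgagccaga
Slc30a1: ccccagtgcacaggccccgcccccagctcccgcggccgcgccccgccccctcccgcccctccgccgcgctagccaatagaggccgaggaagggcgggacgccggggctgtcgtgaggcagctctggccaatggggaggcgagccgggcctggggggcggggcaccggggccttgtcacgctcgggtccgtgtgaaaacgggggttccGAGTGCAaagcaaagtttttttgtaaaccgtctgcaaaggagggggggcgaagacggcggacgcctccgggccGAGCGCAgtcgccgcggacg
Slc30a5: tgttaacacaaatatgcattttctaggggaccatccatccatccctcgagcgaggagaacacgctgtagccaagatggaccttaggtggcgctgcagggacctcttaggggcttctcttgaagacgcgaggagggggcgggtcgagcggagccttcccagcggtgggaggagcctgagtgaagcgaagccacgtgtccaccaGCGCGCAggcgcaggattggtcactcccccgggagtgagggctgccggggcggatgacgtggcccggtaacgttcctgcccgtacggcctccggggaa
The Mt1 window held 3 matches, the Mt2 window 4, the Slc30a1 window 2 and the Slc30a5 window 1. Of these 10 matches, 4 lay in the 50 bases after the annotated start, 2 in Mt1, 1 in Mt2 and 1 in Slc30a1, and the others lay before it. Among 32841 windows of the same length in the reference, 25.7% held at least 1 match, 1.31% held 3 or more and 0.295% held 4 or more. The windows of Mtf1, Slc30a7, Slc39a1, Slc39a7 and Slc39a10 held none. The Slc30a5 window also held TGACGTGG, a core of the unfolded protein response element, which 0.676% of the windows held on either strand, and no other member's window did. The antioxidant response core TGACNNNGC was in the windows of Mt2, Slc30a1, Slc30a5 and Slc39a1 and in 12.4% of all windows, and in Slc30a5 it overlapped TGACGTGG. These matches describe letters in the reference and are not measurements of binding.

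With EPA, 6 of the 10 genes rose and 1 fell. Both metallothionein genes, the exporters of the early secretory pathway Slc30a5 and Slc30a7, and the importers Slc39a6 and Slc39a7 were higher. Mtf1 was lower. The rises were 1.30-fold to 1.78-fold. Calls are from limma with a Benjamini-Hochberg adjusted p below 0.05 over 9239 named genes above background. Of those 9239 genes, 34.1% passed, 18.5% higher and 15.7% lower. The median log2 difference, EPA minus control, was 0.40 over the 9 tested members and 0.01 over all genes tested. Of the 10 members, 8 lay above the background limit of 39.7 intensity units on all 6 arrays. Slc30a1 passed the filter only through its EPA arrays, and Slc39a10 did not pass it. Passing the filter only through the EPA arrays favours genes that read higher there, so the members' counts are given as a description. Slc30a1 was not among the genes called. The EPA and control samples did not overlap for 8 of the 10 members, 7 higher and 1 lower, and did not overlap for 47.7% of all tested genes, 24.9% higher and 22.8% lower. In bulk RNA, fewer cells expressing a gene and less of its RNA per cell cannot be told apart.

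**Figure D1:**
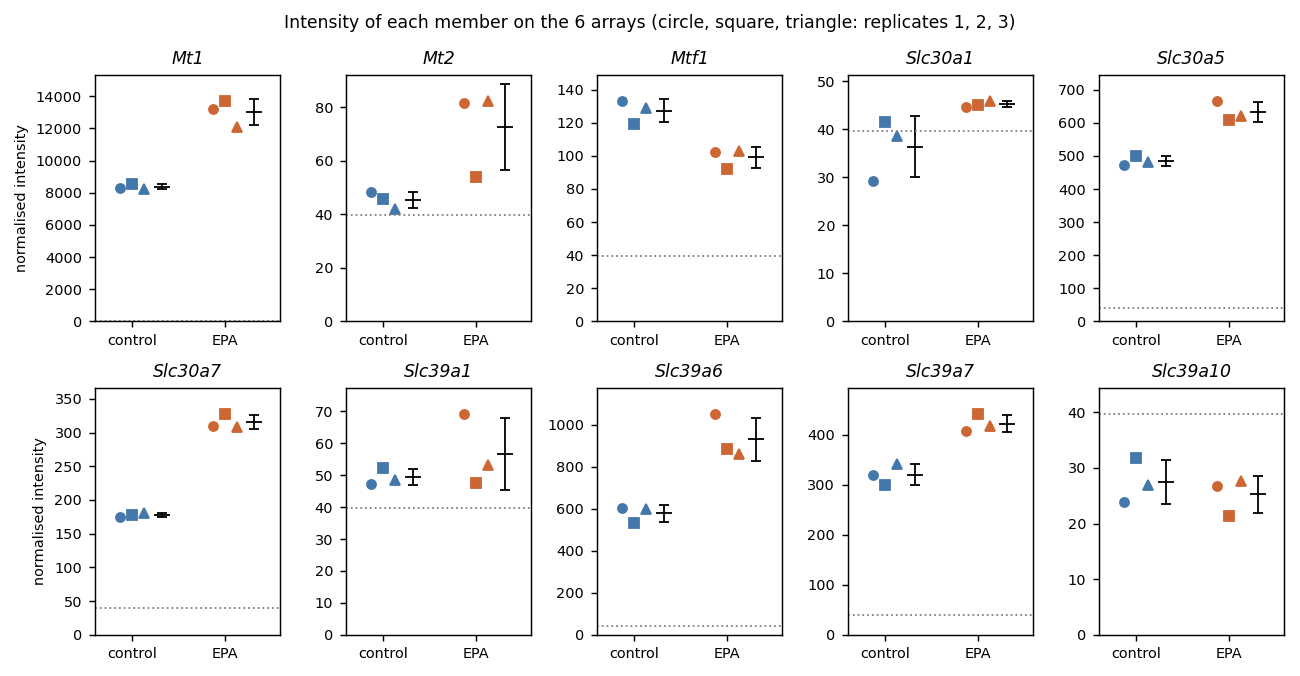
Quantile-normalised intensity (linear scale, y axes from 0) of each of the 10 genes in 3 control and 3 EPA samples, with the mean and SD in black and the background limit of 39.7 as a dotted line. The groups do not overlap for 8 genes, and Slc39a10 lies below the limit on all 6 arrays.

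Mt1 and Mt2 are the metallothionein genes expressed in most tissues and induced together by metals. Mt1 read 8310, 8540 and 8254 units in control samples 1 to 3 and 13188, 13709.5 and 12111 in EPA samples 1 to 3. Every EPA sample was thus well above every control sample, and the control samples lay within a narrow band. The group means were 8368 ± 151 (SD, n = 3) and 13003 ± 815, a 1.55-fold rise (log2 difference 0.63, SE 0.0745, limma adjusted p = 0.000236). Mt2, its neighbour on chromosome 8, read 48.2, 45.8 and 42.0 in control samples and 81.4, 53.9 and 82.3 with EPA. EPA sample 2 stood below the other EPA samples, near the controls but still above them. The rise from 45.3 ± 3.14 to 72.5 ± 16.1 was 1.57-fold (log2 difference 0.65, SE 0.149, limma adjusted p = 0.00816). Mt2 was close to background in the controls, and with the background level subtracted its rise was 2.48-fold. Without the filter on dim targets the Mt2 call was lost (limma adjusted p = 0.0803). Mt1 and Mt2 are close paralogs, and each was read by 1 probe whose sequence is not used here, so cross-hybridisation between them was not tested. Mt3 and Mt4, metallothionein genes of brain and of stratified epithelium, were not above background on all arrays of either group.

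Mtf1, which encodes the factor that drives metallothionein genes, went the other way. It read 133, 119 and 129 in control samples and 102, 91.7 and 103 with EPA, with every EPA sample below every control sample. Its mean was 127 ± 7.02 in control cells and 99.1 ± 6.34 with EPA, and it was 1.28-fold lower (log2 difference -0.36, SE 0.0800, limma adjusted p = 0.00712). Without the filter on dim targets this call was lost (limma adjusted p = 0.0716).

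Of the exporters, Slc30a7 changed most. Its product ZnT7 loads zinc into the Golgi and early secretory pathway, where zinc enzymes such as alkaline phosphatases are assembled. Slc30a7 read 175, 177 and 180.4 in control samples and 310.4, 327 and 309 with EPA. The gap between the groups was many times the spread within either group. Its mean went from 177 ± 2.82 to 315 ± 10.1, a 1.78-fold rise (log2 difference 0.83, 95% interval 0.68 to 0.98, limma adjusted p = 4.45e-05), and 1.92% of the tested genes differed by more in either direction. Slc30a5, whose product ZnT5 serves the same compartment as a partner of ZnT6, read 473, 501 and 480.5 in control samples and 666, 609.7 and 621 with EPA. The groups did not overlap. The rise was 1.30-fold, from 485 ± 14.4 to 632 ± 29.8 (log2 difference 0.38, 95% interval 0.22 to 0.54, limma adjusted p = 0.00305). Slc30a6, which encodes that partner, had a log2 difference of 0.25 (95% interval 0.00 to 0.49, limma adjusted p = 0.104) and did not pass.

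Slc30a1 encodes ZnT1, the plasma membrane exporter, and is a direct MTF1 target. It read 29.2, 41.5 and 38.6 in control samples and 44.7, 45.1 and 45.9 with EPA. The EPA samples lay above the controls, but all values were near the background limit and 1 of the 3 control arrays exceeded it. Its log2 difference of 0.33 (95% interval 0.06 to 0.59) did not pass (limma adjusted p = 0.0567). It passed in 3 of 13 alternatives, among them without control replicate 2 (log2 difference 0.43, limma adjusted p = 0.0281) and with the background level subtracted (log2 difference 0.79, limma adjusted p = 0.0417), and over the alternatives its adjusted p ran from 0.0281 to 0.239.

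Among the importers, Slc39a6 changed most. It encodes ZIP6, a plasma membrane importer studied in epithelial-mesenchymal transition and in breast cancer. Slc39a6 read 605, 531 and 601 in control samples and 1051, 883 and 862 with EPA. Each EPA sample exceeded each control sample by a wide margin. The mean went from 579 ± 41.5 to 932 ± 104, a 1.61-fold rise (log2 difference 0.68, SE 0.0957, limma adjusted p = 0.000612). Slc39a7 encodes ZIP7, which releases zinc from the endoplasmic reticulum and Golgi into the cytosol. It read 319, 299 and 341 in control samples and 408, 441 and 418 with EPA, again with no overlap. The rise was 1.32-fold, from 320 ± 20.9 to 422 ± 16.8 (log2 difference 0.40, SE 0.0772, limma adjusted p = 0.00336).

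Slc39a1, for the widely expressed plasma membrane importer ZIP1, read 47.4, 52.2 and 48.7 in control samples and 69.1, 47.5 and 53.2 with EPA. EPA sample 1 was high and the other EPA samples lay among or next to the controls. Its log2 difference of 0.18 (95% interval -0.10 to 0.46) did not pass (limma adjusted p = 0.296), and without EPA replicate 1 it was 0.03. Slc39a10, for ZIP10, a partner of ZIP6 in a joint complex, read 23.8 to 31.7 in control samples and 21.4 to 27.7 with EPA. It was not above background on any array, so no change can be read for it.

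**Figure D2:**
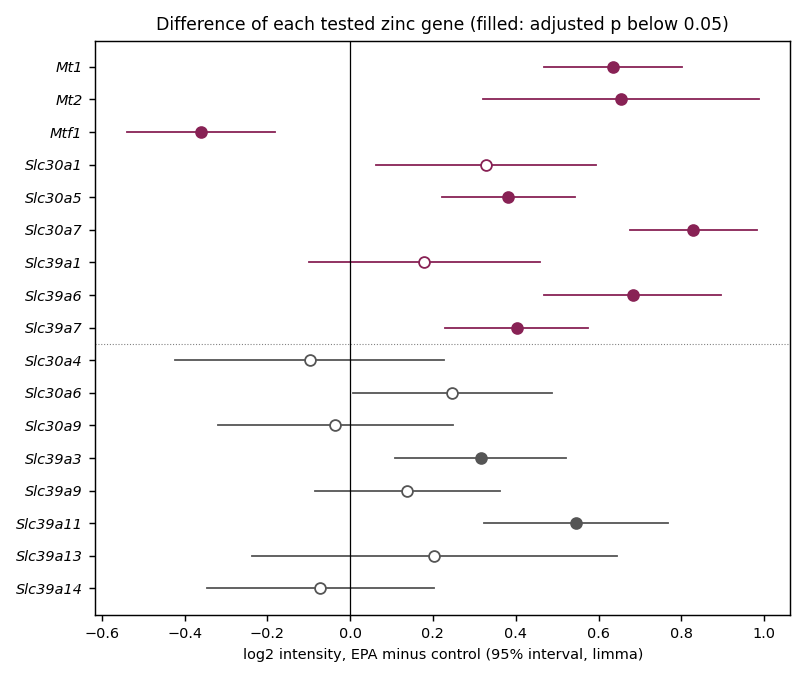
Difference in log2 intensity, EPA minus control, with the 95% interval from limma, for the 9 tested members (above the dotted line) and the 8 other tested genes of the SLC30 and SLC39 families (below it). Filled points passed an adjusted p of 0.05, and Mtf1 is the gene that passed below 0.

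Further genes of both transporter families were also read. Of 8 further exporter genes listed, 3 were above background (Slc30a4, Slc30a6 and Slc30a9), and 0 of these passed in limma, with 1 (Slc30a6, higher) at an unadjusted p below 0.05. No target was matched to Tmem163, so that gene was not read. Slc30a4 and Slc30a9 had log2 differences of -0.10 and -0.04. Of 10 further importer genes, 5 were tested and 2 rose, with a median log2 difference of 0.20. The share called was 40%, beside 34.1% of all tested genes. Slc39a11, for the intracellular transporter ZIP11, read 319, 368 and 333 in control samples and 564, 481 and 448 with EPA, a 1.46-fold rise (limma adjusted p = 0.00254). Slc39a3, for ZIP3, rose 1.24-fold from 45.6 ± 1.48 to 57.0 ± 6.69 (limma adjusted p = 0.0249). Leaving out control replicate 1, control replicate 2, EPA replicate 1 or EPA replicate 3 ended the Slc39a3 call, with adjusted p-values of 0.0798, 0.0663, 0.0624 and 0.0610. Slc39a9, Slc39a13 and Slc39a14 had log2 differences of 0.14, 0.20 and -0.07 and did not pass. For Slc39a13, EPA sample 1 read 246 and the other EPA samples 144 and 147, within the control range of 128 to 180.3.

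The authors' deposited table of EPA against control includes 6 of the 10 members. It holds 4423 targets with raw p-values up to 0.05, beside 30828 target IDs in the array table. In the authors' deposited table the ratio of EPA over control is 1.78 for Slc30a7, 1.61 for Slc39a6, 1.55 for Mt1, 1.32 for Slc39a7, 1.3 for Slc30a5 and 0.78 for Mtf1. Mt2, Slc30a1, Slc39a1 and Slc39a10 are not listed in the authors' deposited table. The listed ratios and the folds above come from the same arrays, so their match is no separate evidence.

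**Figure D3:**
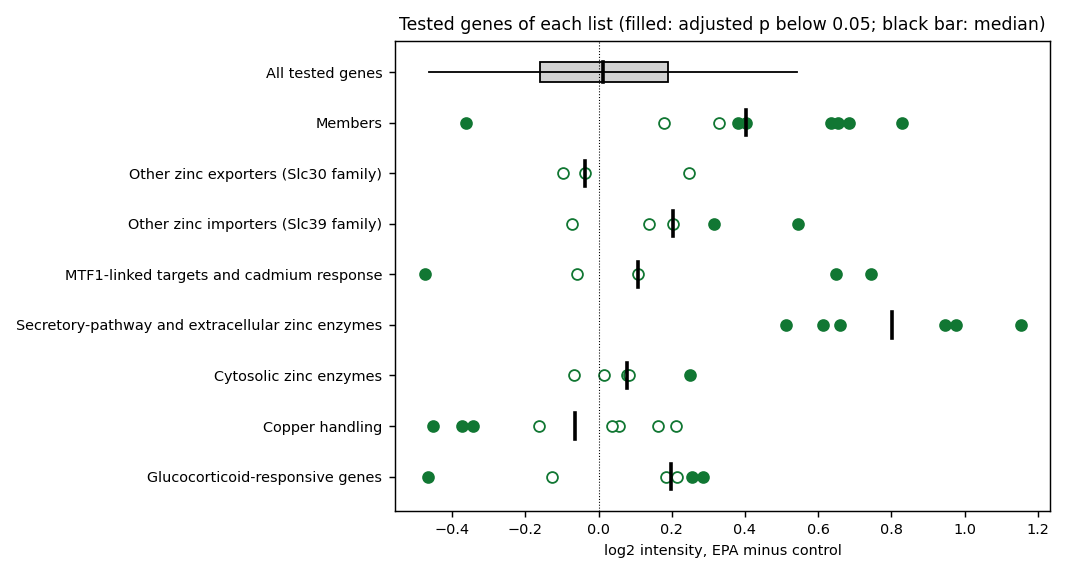
Difference in log2 intensity, EPA minus control, of the tested genes of each list, with filled points past an adjusted p of 0.05 and the list median as a black bar. The top line shows all 9239 tested genes as a box of the middle quartiles with whiskers at the 5th and 95th percentiles (-0.46 and 0.54), and the points for secreted and membrane zinc enzymes all lie to the right of 0.5.

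Genes that use zinc or answer to metals were read beside the members. Of 11 genes for zinc enzymes of the secretory pathway and cell surface, 6 were tested and 6 rose. Their median log2 difference was 0.80. Over all tested genes, 18.5% rose and the median was 0.01. This list, like the members and the other lists, was chosen with earlier results of these data known. A link of these genes to ZnT5 or ZnT7, which supply the early secretory pathway, was not tested. Enpp1 and Enpp2, phosphodiesterases of which Enpp2 is autotaxin, rose 1.93-fold and 1.58-fold. The surface carbonic anhydrase gene Car9 rose 1.53-fold, and the sheddase gene Adam17 rose 1.43-fold from 181 ± 15.8 to 258 ± 12.5. The matrix protease genes Mmp2 and Mmp14 rose 2.22-fold and 1.97-fold. With the background level subtracted the rises of Enpp1, Enpp2 and Car9 were 2.90-fold, 2.73-fold and 2.44-fold. Enpp2 lay above the limit on 2 of the 3 control arrays, so it passed the filter only through its EPA arrays. Alpl, Enpp3, Car12, Adam10 and Ace were not above background on all arrays of either group. Of 7 cytosolic zinc enzymes, 5 were tested and 1 rose (20%, beside 34.1% of all tested genes called). It was the superoxide dismutase gene Sod1 (1.19-fold, limma adjusted p = 0.0227). Leaving out control replicate 1, control replicate 2, EPA replicate 1 or EPA replicate 3 ended that call, at adjusted p-values of 0.0541, 0.0755, 0.0545 and 0.0691.

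Of 6 genes linked to MTF1 or to the cadmium response, 5 were tested, 2 rose and 1 fell. The share called was 60%, beside 34.1% of all tested genes. Hmox1, the haem oxygenase gene, rose 1.68-fold from 188 ± 23.4 to 316 ± 41.2 (limma adjusted p = 0.00120). Gclm, for the modifier subunit of the enzyme that starts glutathione synthesis, read 458, 521 and 365 in control samples and 972, 573 and 605 with EPA, a 1.57-fold rise (limma adjusted p = 0.0273). EPA sample 1 was well above the rest, and without it the log2 difference was 0.41 in place of 0.65 and did not pass (limma adjusted p = 0.0544). The Gclm call was also lost without control replicate 1 or control replicate 3 (limma adjusted p = 0.0592 and 0.0960). Selenow, for selenoprotein W, was 1.39-fold lower with EPA (735 ± 29.5 to 530 ± 44.7, limma adjusted p = 0.00188). Ndrg1 and Csrp1 had log2 differences of 0.11 and -0.06 and did not pass, and Gclc was not above background on all arrays of either group.

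Among genes of copper handling, those that passed were lower with EPA. Of 10 listed, 8 were tested in limma, 0 rose and 3 fell, with 1 higher (Slc31a1) at an unadjusted p below 0.05. No target was matched to Sco2, so that gene was not read. The share called, 37.5%, was close to the 34.1% of all tested genes, and the median log2 difference was -0.06. The copper chaperone gene Atox1 read 3666, 3678 and 3768 in control samples and 2831, 2795 and 2506 with EPA, and was 1.37-fold lower (limma adjusted p = 0.00155). Commd1, a copper-transport regulator, was 1.29-fold lower (limma adjusted p = 0.00567), and Cox17, which carries copper to cytochrome oxidase, 1.27-fold lower (limma adjusted p = 0.0225). Leaving out control replicate 1, control replicate 3 or EPA replicate 3 ended the Cox17 call, at adjusted p-values of 0.0877, 0.0652 and 0.0868. The copper importer gene Slc31a1 had a log2 difference of 0.21, and Atp7a, Ccs and Sco1 had 0.06, -0.16 and 0.04. Metallothionein genes also answer to glucocorticoids. Of 7 glucocorticoid-responsive genes, 6 were tested, 2 rose and 1 fell, a share of 50% beside 34.1% of all tested genes. Sgk1 rose 1.22-fold and Klf9 1.19-fold, whereas Tsc22d3 was 1.38-fold lower (limma adjusted p = 0.00326). The Klf9 call (limma adjusted p = 0.0354) was lost without any of the 6 samples but EPA replicate 1, at adjusted p-values of 0.0504 to 0.122. Fkbp5, Per1 and Dusp1 had log2 differences of 0.21, -0.13 and 0.19 and did not pass.

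Cell type markers were also read. Of 9 epithelial and intestinal markers, 2 (Krt8 and Cldn7) were above background on all arrays of a group, and the other 7 (Epcam, Cdh1, Krt18, Krt19, Krt20, Cdx2 and Vil1) were not, although Cdh1, Krt20 and Cdx2 exceeded the limit on some arrays. Of 8 immune markers, Cd68 and Cd14 were above background and neither passed, and the list's summed intensity was 372 to 406 in control samples and 372 to 390.0 with EPA. Of 8 fibroblast and endothelial markers, 4 were tested and 3 rose (Col1a2, Dcn and Pdgfra), a share of 75% beside 34.1% of all tested genes. The other tested marker, Col1a1, had a log2 difference of 0.22 and did not pass (limma adjusted p = 0.239). Col1a1 passed the filter only through its EPA arrays. Dcn had the list's largest change of mean intensity, from 263 in control samples to 551 with EPA. The summed intensity of that list was 610 to 628 in control samples and 1047 to 1098 with EPA, while Thy1, Pecam1, Cdh5 and Kdr were not above background on all arrays of either group. The part of these marker genes in the zinc results was not tested. Correlations of log2 intensity over the 9239 genes ranged from 0.994 to 0.997 for samples of 1 group and from 0.983 to 0.985 across the groups.

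Slc30a7 was also used to look for genes of like profile. The measure was the root mean square difference of log2 intensities, each gene centred on its own mean over the 6 arrays. The 5 nearest of the 9239 genes were Calu, Cav1, Cemip2, Igfbp5 and Nfkbia, at 0.0332, 0.0335, 0.0336, 0.0383 and 0.0420. Calu, for the secretory-pathway calcium-binding protein calumenin, rose 1.79-fold, and Cav1, for the caveolar coat protein caveolin-1, 1.72-fold. With 2 groups of 3 arrays, such likeness mostly measures a similar difference between the groups.

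**Figure D4:**
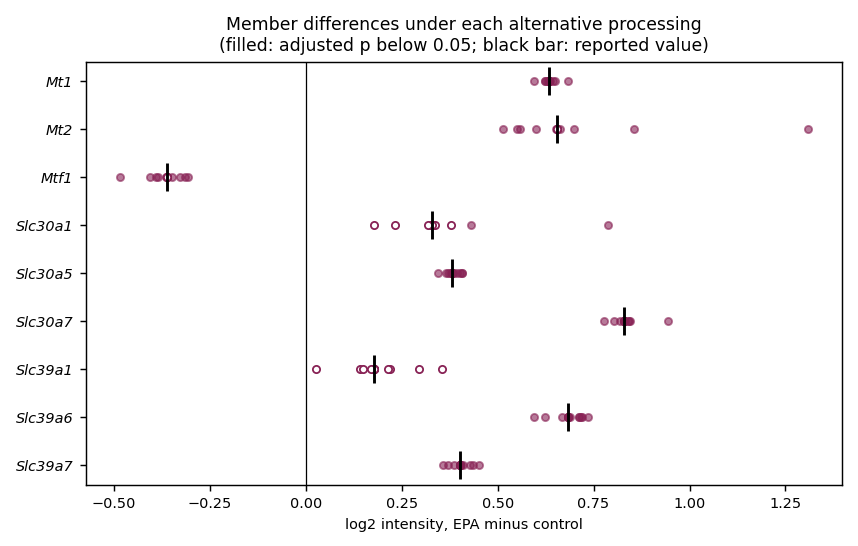
Difference in log2 intensity, EPA minus control, of the 9 tested members under each alternative processing (points, filled where the adjusted p was below 0.05) and as reported (black bar). No point crosses 0, and the rightmost points of Mt2 and Slc30a1 are those with the background level subtracted.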

How the data were processed

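MC38 RNA from 3 control and 3 EPA samples was read on Illumina MouseWG-6 v2 arrays. Exports of the series name GenomeStudio 1.7.0 and quantile normalisation, per the file headers. The deposited intensity values are linear, and their sorted values differ between arrays by at most 0.465%. For the way probes of a target were combined, and for background correction, the sources used here give nothing. The authors' deposited comparison gives a ratio, its log2 value and p-values, and its test is not stated. The deposited probe numbers were used only to count probes per target (1 to 3 for the members). In other tables, 102 columns of per-array values match no sample label and were not used.

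Log2 intensities were compared in R 4.3.3 by a two-sided moderated test (limma 3.58.1, functions lmFit and eBayes) with Benjamini-Hochberg adjustment and a threshold of 0.05. Background was the mode of all intensities (28.2, SD 6.97 below it), and a target was kept if it exceeded 39.7, a one-sided 0.05 limit, on every array of a group. This kept 11742 of 30828 targets. Of these, 9774 had a name in the RefSeq table of GRCm38.p6, used for names only, and the brightest target stood for each of 9239 genes. Each member was represented by its own target. Folds are ratios of geometric means, and an uncorrected background makes those of dim genes too small. No target level is set against another's. Precision is limited by having 3 arrays a group.

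The 10 members, all gene lists and the alternatives were chosen with earlier results of these data known. The genes named are the members, every list gene that passed and up to 4 per list that did not. Others, among them dim genes and markers, were named after their values were seen. On simulated data with 200 of the 9239 genes changed, 12% of changes of 0.25, 58% of changes of 0.5 and 92% of changes of 1 on the log2 scale were recovered. In the real data 34.1% of genes passed. The Benjamini-Hochberg cut-off depends on the share of changed genes, so these rates do not give the recovery in this comparison. Same-numbered samples did not deviate together (correlations -0.04, -0.19 and 0.11), so the fit has no replicate block.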

Additional observations from a re-analysis of the deposited data

How the results depend on the processing

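Of the members, Mt1, Slc30a5, Slc30a7, Slc39a6 and Slc39a7 passed as rises under all 14 alternatives, with log2 differences of 0.59 to 0.68, 0.34 to 0.41, 0.78 to 0.94, 0.59 to 0.74 and 0.36 to 0.45. Mt2 ranged from 0.51 to 1.31 and Mtf1 from -0.48 to -0.31, and both lost their call only with no filter on dim targets, where 0 members passed as lower and 5 as higher. With no filter, 731 genes passed as higher and 582 as lower (1709 and 1446 as reported), with 19964 genes tested. Among list genes, 1 further importer, 1 MTF1-linked gene, 0 glucocorticoid-responsive genes and 0 cytosolic zinc enzymes then passed as higher. The 6 secretory-pathway zinc enzymes kept their calls. Selenow (MTF1-linked), Atox1 (copper) and Tsc22d3 (glucocorticoid-responsive) kept their calls as lower. With the background level subtracted, 1 MTF1-linked and 1 glucocorticoid-responsive gene passed as higher. The replicate block gave 1598 genes higher and 1334 lower, 7 members higher (Slc30a1 added, limma adjusted p = 0.0444) and 1 glucocorticoid-responsive gene higher, and it changed no other member's call. Since the numbers do not pair the samples, this is no sign of weaker or stronger effects. Leaving out each sample in turn gave 1282 to 1602 genes higher, 6 to 7 members higher, 1 member lower, and as higher 0 to 1 further exporters (Slc30a6 without control replicate 1), 1 to 3 further importers (Slc39a8 and Slc39a12 also passing without EPA replicate 1), 1 to 2 MTF1-linked genes, 1 to 2 glucocorticoid-responsive genes and 0 to 1 cytosolic zinc enzymes. No difference of a member or called list gene turned its sign under any alternative. Treating each target as its own row, unnamed ones included, moved the share of higher calls from 54.2% to 49.6%. Signal near background limits Mt2, Slc30a1, Slc39a1 and Slc39a10.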
